A study of Mus musculus with 753 samples.

Results

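The 40 mitosis genes followed here code for proteins that carry a cell through mitosis, and they were measured in single keratinocytes of mouse skin before and during wound repair. They were taken by symbol from a list of genes known for mitosis. The rule uses no measured value, though the list was chosen with earlier results of these data known. All 40 were found among the 25001 genes of the combined expression table. Each belongs to 1 of 9 roles: cyclins, Cdk1 and its partners; control of protein destruction; mitotic kinases and spindle checkpoint; the chromosomal passenger complex; centromere and kinetochore; spindle motors and microtubule-binding proteins; the central spindle; chromosome structure with the proliferation marker *Mki67*; and tubulin, tubulin binding and nuclear import.

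The cells came from Gata6EFGPCreERT2 Rosa26-fl/STOP/fl-tdTomato mice, in which topical 4-hydroxytamoxifen lets Cre, made from the *Gata6* locus, switch on tdTomato in cells that express *Gata6* and in their progeny. All groups, unwounded ones included, share this genotype, with Cre (+/-) and tdTomato (+/-), and this treatment. The lin+ cells carried tdTomato and the lin- cells did not, and both were sorted from epidermis of unwounded skin (day 0) and of wounds 6, 9 and 11 days old. Marking thus depends on the activity of the *Gata6* locus at the time of treatment, and lin- cells can include unmarked progeny. Samples were mixed with epidermal cells of mice that express eGFP everywhere, which the sort then removed. By the paper, the sort also used Itga6, an integrin high in basal cells, to part them from suprabasal cells. The sample titles do not name this gate. Shares of cells below therefore describe the sorted cells and not the skin. Of 753 samples, 6 were blank wells, and the cells in the deposited annotation were used, 222 of a first batch and 462 of a second. They form 14 sets, each the cells of 1 lineage from the mouse or mice of 1 replicate, or from day 6, where the labels name no replicate. By the methods, day 6 came from several mice in 2 replicates, which are thus pooled here as 1 set per lineage, and days 9 and 11 from 1 mouse per replicate. The first batch holds replicate 1 of days 0, 9 and 11, and the second holds replicate 2 of those days and day 6. By the methods of the study, the unwounded skin came from mice that also gave wounds, which the labels do not name, so the sets are not known to be independent. The batches were sequenced in 6 runs in which day 0 never shared a run with a wound, so the run and the presence of a wound cannot be told apart.

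A dividing cell raises cyclin B and Cdk1 activity to enter mitosis, attaches each chromosome to spindle microtubules through its kinetochores, and waits at the spindle checkpoint until all are attached. The anaphase-promoting complex, switched on by Cdc20, then marks cyclin B for destruction, and the central spindle guides the cut between the daughter cells. Most of these genes are transcribed late in the cell cycle, so their mRNAs appear together in the few cells near division, whereas tubulin, stathmin and some others are also made in resting cells. In the epidermis, division takes place mainly in the basal layer, and wound edges are known for a rise in it.

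Promoters of late cell cycle genes are known for 2 short motifs, the CHR (letters TTTGAA), bound by the DREAM and MuvB complexes, and the CCAAT box (letters CCAAT), bound by NF-Y. In RefSeq windows of 300 bases, from 250 before to 50 after a start site (GRCm38.p6), 34 of the 40 members had an entry. Both strands were searched. The CHR letters stood in 25 of the 34 members (73.5%) and in 20.2% of 27025 genes. The CCAAT letters stood in 28 members (82.4%) and 41.1% of genes, and both were found in 23 members (67.6%) and 7.97% of genes. The windows of 5 members with both motifs, each among the members described in full below, are printed from 250 bases before to 30 after the start site, 5′ to 3′ on the gene's strand, with the letters of both motifs and their reverse complements in capitals.
*Ccnb2*, cyclin B2 (chr9:70421525-70421804, minus strand): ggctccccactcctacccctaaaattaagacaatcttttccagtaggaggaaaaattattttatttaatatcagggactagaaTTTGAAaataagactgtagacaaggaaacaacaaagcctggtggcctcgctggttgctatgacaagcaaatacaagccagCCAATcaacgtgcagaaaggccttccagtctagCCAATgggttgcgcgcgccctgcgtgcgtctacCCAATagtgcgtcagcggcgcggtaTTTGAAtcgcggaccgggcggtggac
*Cdc20* (chr4:118437314-118437593, minus strand): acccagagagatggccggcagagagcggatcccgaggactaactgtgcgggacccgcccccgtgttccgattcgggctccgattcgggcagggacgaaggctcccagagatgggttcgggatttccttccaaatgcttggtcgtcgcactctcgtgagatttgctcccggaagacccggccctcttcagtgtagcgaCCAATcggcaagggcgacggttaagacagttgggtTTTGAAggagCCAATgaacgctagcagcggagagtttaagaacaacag
*Cdca8*, borealin (chr4:124936888-124937167, minus strand): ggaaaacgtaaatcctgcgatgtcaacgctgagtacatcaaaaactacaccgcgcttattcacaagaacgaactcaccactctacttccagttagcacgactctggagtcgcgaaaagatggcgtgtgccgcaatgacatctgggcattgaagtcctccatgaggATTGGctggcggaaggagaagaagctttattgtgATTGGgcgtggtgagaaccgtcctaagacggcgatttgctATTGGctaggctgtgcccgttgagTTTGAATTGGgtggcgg
*Cenpa*, the centromeric histone (chr5:30666636-30666915, plus strand): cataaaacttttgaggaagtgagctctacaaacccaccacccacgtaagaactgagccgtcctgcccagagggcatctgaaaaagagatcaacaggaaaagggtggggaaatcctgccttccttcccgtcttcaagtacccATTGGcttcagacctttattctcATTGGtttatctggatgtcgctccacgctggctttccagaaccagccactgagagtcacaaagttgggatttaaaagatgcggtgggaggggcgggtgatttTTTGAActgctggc
*Top2a*, DNA topoisomerase II alpha (chr11:99024160-99024439, minus strand): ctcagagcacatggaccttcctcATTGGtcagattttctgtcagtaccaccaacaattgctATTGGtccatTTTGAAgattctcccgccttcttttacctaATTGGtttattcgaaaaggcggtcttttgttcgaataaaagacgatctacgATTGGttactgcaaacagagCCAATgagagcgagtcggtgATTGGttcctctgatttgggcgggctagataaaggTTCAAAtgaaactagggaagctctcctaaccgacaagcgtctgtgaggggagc
The spacing differed among them. In *Cdc20* the CHR letters began 18 bases before the start site, between CCAAT boxes at 53 and 8 bases before it, whereas *Cenpa* held its CHR letters 16 bases past the start site, with CCAAT letters at 109 and 86 bases before it on the opposite strand. The window of *Top2a* held 6 CCAAT boxes and 2 CHR motifs. In *Cdca8* the last CCAAT letters and the CHR letters share 1 base and run on as a single stretch of capitals. A match of letters is a description and does not show binding.

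Each cell was first described by how many of the 40 genes had at least 1 read. The members were spread very unevenly over cells. Over both batches 381 cells held 0 to 4 members, 25 of them none, and 83 cells (12.1%) held 20 or more, up to 39. The cells with 20 or more also held a median of 33 of 67 other mitosis genes and 11 of 30 S-phase genes. Cells with 10 to 19 members held 11.5 of the other mitosis genes and 14.5 of the S-phase genes, so the intermediate class was the one with the most S-phase genes. Just below the limit of 5 members asked for here lay 101 cells with exactly 4, and just inside it 71 cells with exactly 5. The classes also differed in detected genes, with a median of 2028.5 genes in cells with 1 to 4 members, 2834.5 with 5 to 9, 3562 with 10 to 19 and 3981 with 20 or more. Across cells, members detected followed genes detected (Spearman's rho of 0.686 over 222 cells of the first batch and 0.726 over 462 of the second) more closely than reads (0.35 and 0.114). Both counts come from the same libraries.

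**Figure D1:**
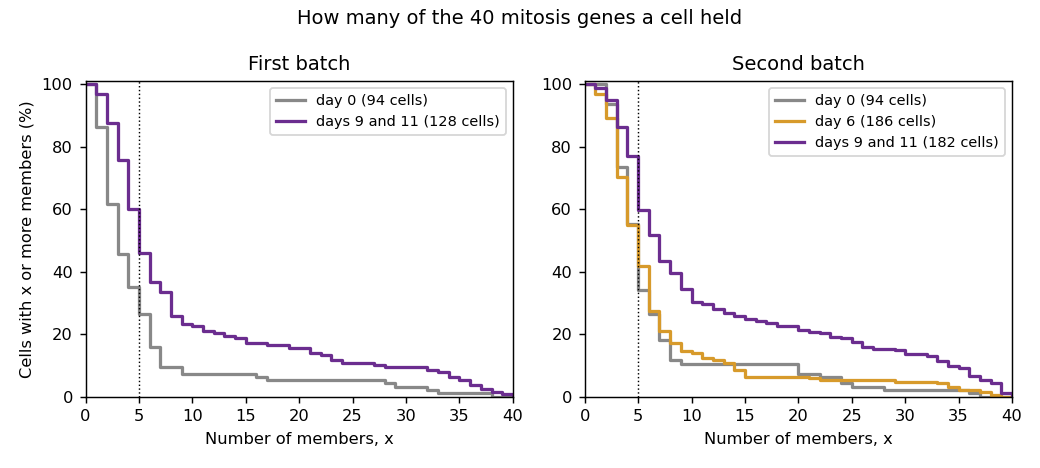
Share of cells (y axis, %) that held at least x of the 40 mitosis genes (x axis), by time and batch, with the dotted line at 5 members. The curves fall most steeply below 10 members, and at 5 members cells of days 9 and 11 lie above those of day 0 in both batches.

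The detection of single members varied widely. *Bub3*, *Hmgb2*, *Tubb5*, *Stmn1* and *Kpna2*, known to be made also outside mitosis, were found in 23.4 to 54.5% of first-batch and 35.7 to 75.8% of second-batch cells. *Bub1*, which codes for a checkpoint kinase, was found in 4.95 and 6.06% of cells, the lowest share in each batch. *Mad2l1*, a checkpoint protein that holds back Cdc20, was read in 21.6% of first-batch cells and 84.0% of second-batch cells, where it had a median of 4 reads per cell in which it was found. With 10 or more reads asked for, its shares were 16.2 and 21.9%. *Cdk1*, the kinase that drives entry into mitosis, was found in 14.4 and 13.9% of cells, and 96.9 and 95.3% of those held at least 5 other members. *Mki67*, the gene of the proliferation marker Ki67, was found in 19.8 and 19.5% of cells, of which 77.3 and 92.2% held 5 others. *Tubb5*, beta-tubulin, was found in 46.4 and 75.8%, and only 52.4 and 46.9% of those cells held 5 others. A cell that held *Cdk1* thus nearly always held 5 or more others, and a cell that held *Tubb5* often held fewer than 5 others.

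The share of cells with 5 or more members was higher in 7 of the 8 sets of days 9 and 11 than in the day 0 set of the same lineage and batch. In lin+ cells of the first batch it was 23.4% at day 0 (exact 95% interval 12.3 to 38.0), 57.1% at day 9 (41.0 to 72.3) and 37.5% at day 11 (21.1 to 56.3). In lin+ cells of the second batch it was 45.7% at day 0 (30.9 to 61.0), 39.8% at day 6 (29.8 to 50.5), 54.5% at day 9 (38.8 to 69.6) and 63.8% at day 11 (48.5 to 77.3). Intervals cover counting error only, that of the cells in a set, and hold no spread between mice.

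In lin- cells of the first batch the share was 29.8% at day 0 (17.3 to 44.9), 64.3% at day 9 (44.1 to 81.4) and 19.2% at day 11 (6.55 to 39.4). In lin- cells of the second batch it was 22.9% at day 0 (12.0 to 37.3), 44.1% at day 6 (33.8 to 54.8), 61.4% at day 9 (45.5 to 75.6) and 59.6% at day 11 (44.3 to 73.6). Day 11 of replicate 1, with 26 cells, was the one late set below its day 0 set. Taking days 9 and 11 together as the mean of their sets, lin+ cells stood 23.9 percentage points above day 0 in the first batch and 13.4 in the second, and lin- cells 11.9 and 37.6 points above. Without the day 9 set of replicate 1 the lin- difference of the first batch was -10.6 points, and without the day 11 set it was 34.5. With *Mad2l1*, whose detection differed between batches, left out of the list, the share with 5 or more members in lin+ cells was 21.3, 54.8 and 34.4% at days 0, 9 and 11 of the first batch and 37.0, 24.7, 47.7 and 55.3% at days 0, 6, 9 and 11 of the second. In lin- cells it was 29.8, 60.7 and 15.4%, and 16.7, 30.1, 52.3 and 59.6%.

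**Figure D2:**
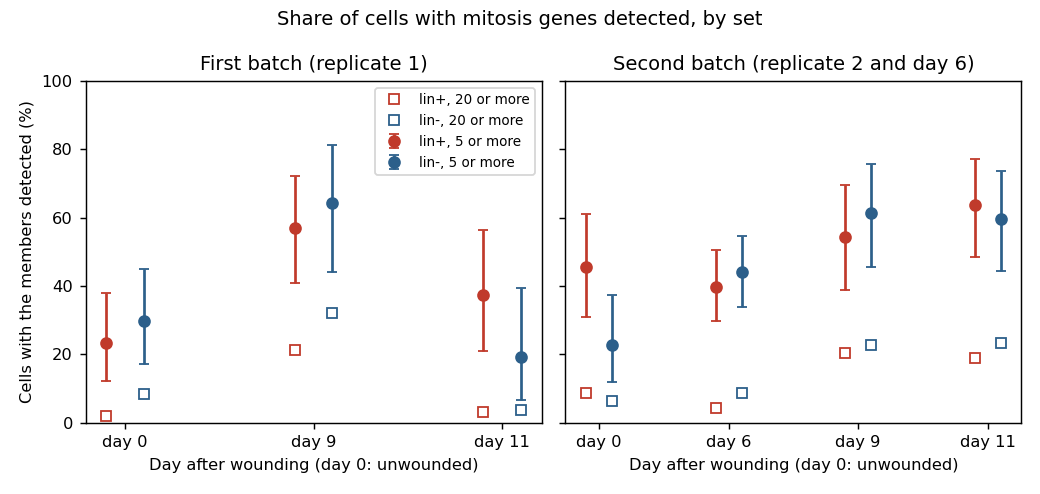
Share of cells (y axis, %) with the members detected, by day after wounding and batch, for lin+ and lin- cells. Filled points with bars give the share with 5 or more members and its exact 95% binomial interval, the open points the share with 20 or more. The share with 5 or more was lowest at 19.2%, in lin- cells of day 11, replicate 1, and highest at 64.3%, in lin- cells of day 9, replicate 1.

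The number of detected genes moved with these shares. The median per set was 1776 to 2308 genes at day 0, 2089 and 2143 at day 6, and 1943.5 to 3228 at days 9 and 11, the lowest of these again in lin- cells of day 11, replicate 1. Among cells with 1500 to 2500 detected genes, both lineages together, the share with 5 or more members was 22.2% of 54 cells at day 0 and 21.9% of 32 at days 9 and 11 in the first batch, and 29.5% of 44 and 25.8% of 31 in the second, with 36.7% of 60 at day 6. Among cells with 2500 to 3500 genes it was 76.9% of 13 at day 0 and 46.3% of 54 at days 9 and 11 in the first batch, and 59.1% of 22 and 51.9% of 81 in the second, with 57.9% of 38 at day 6. Within these ranges the late wounds were thus not above unwounded skin in the share with 5 or more members. Intervals were wide, as from 46.2 to 95.0% for the 13 cells at day 0. With 10 or more members, the lower range held 3.7% at day 0 and 3.12% at days 9 and 11 of the first batch. In the second batch it held 0.0 and 9.68%. The upper range held 30.8 and 16.7% in the first batch and 27.3 and 21.0% in the second. The number of cells in each range differed with time. Cells with under 1500 genes were 25 of 94 at day 0 and 11 of 128 at days 9 and 11 in the first batch, and 22 of 94 and 4 of 182 in the second. Cells with 2500 to 3500 genes were 13 of 94 and 54 of 128, and 22 of 94 and 81 of 182. Cells with 3500 or more genes were 2 of 94 and 31 of 128, and 6 of 94 and 66 of 182. In the first batch 2 and 26 of those held 5 or more members, and in the second 6 and 59. The part of detected genes in the shares was not tested beyond these values.

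Reads per cell moved differently, with medians per set of 4230000 and 4270000 at day 0 and 4570000 to 5970000 at days 9 and 11 of the first batch, but 2930000 and 3070000 at day 0 and 1810000 to 2270000 at days 9 and 11 of the second. Thinned to 500000 reads, lin+ cells of the first batch with 5 or more members made up 8.51, 48.8 and 25.0% at days 0, 9 and 11, and those of the second 23.9, 30.0, 43.2 and 54.5% at days 0, 6, 9 and 11. For lin- cells the thinned shares were 22.7, 63.0 and 15.4% at days 0, 9 and 11 of the first batch and 12.5, 35.3, 48.8 and 57.8% at days 0, 6, 9 and 11 of the second. Thinning left out the 22 cells with fewer reads, in unequal numbers per set. In lin- cells of day 6, 85 of 93 cells remained. The order of the sets was that of the whole libraries except in lin+ cells at days 0 and 6 of the second batch and lin- cells at days 9 and 11 of that batch. Without the 5 broadly made members the share with 5 or more of the remaining genes was 4.26 to 19.6% at day 0, 14.0 and 18.3% at day 6 and 3.85 to 46.4% at days 9 and 11.

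Cells with 20 or more members, those that held most of the mitosis list, made up 2.13, 21.4 and 3.12% of lin+ cells at days 0, 9 and 11 of the first batch and 8.70, 4.30, 20.5 and 19.1% at days 0, 6, 9 and 11 of the second. In lin- cells they made up 8.51, 32.1 and 3.85% and 6.25, 8.60, 22.7 and 23.4% in the same order. Day 9 was above day 0 in both lineages and both batches, and day 11 of replicate 1, with a single such cell in each lineage, was close to or below day 0. Over both lineages there were 5 such cells of 94 at day 0 and 20 of 128 at days 9 and 11 in the first batch, and 7 of 94, 12 of 186 at day 6 and 39 of 182 in the second.

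The module score, the mean over the 40 genes of ln(1 + 10000 × a gene's share of the cell total), gave the same picture on another scale. Its mean (± SD over cells) in lin+ cells of the first batch was 0.0621 ± 0.170 at day 0, 0.254 ± 0.367 at day 9 and 0.0948 ± 0.196 at day 11. In lin+ cells of the second batch it was 0.156 ± 0.261 at day 0, 0.0951 ± 0.151 at day 6, 0.267 ± 0.417 at day 9 and 0.290 ± 0.405 at day 11. The lowest second-batch value of lin+ cells was thus that of day 6. In lin- cells the score was 0.150 ± 0.362, 0.316 ± 0.361 and 0.0682 ± 0.145 at days 0, 9 and 11 of the first batch, and 0.0978 ± 0.185, 0.143 ± 0.269, 0.300 ± 0.402 and 0.343 ± 0.429 at days 0, 6, 9 and 11 of the second. The SD over cells exceeded the mean in every set, and the fifth of cells with the highest summed member level carried 62.9 to 94.7% of a set's total. Cells are not replicates, and no test was made of the score.

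The cell identities in the annotation were assigned from the same expression values, so differences between them are descriptive. Of the 83 cells with 20 or more members, 79 (95.2%) were IFE-B, the basal cells of the interfollicular epidermis, 3 were OB, the outer bulge of the hair follicle, and 1 was SG, sebaceous gland. IFE-B made up 54.5% of all cells. Of the 25 cells with no member, 72.0% were IFE-B as well. In the second batch it was 87.5% of 8 such cells, which had a median of 297 detected genes. In the first batch 45.8% of 142 IFE-B cells held 5 or more members, 37.5% of 24 OB cells and 19.4% of 36 cells of uHF-I, an identity of the upper hair follicle. In the second batch it was 60.6% of 231 IFE-B, 32.0% of 97 OB and 34.2% of 79 uHF-I cells. None of the 115 uHF-I cells held 20 or more, nor did any of the 15 uHF-II or 27 uHF-III cells. Taking 3 over the number of cells as an approximate limit, not an exact interval, this allows shares of up to 2.61, 20.0 and 11.1%.

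Within IFE-B the share with 5 or more members was 32.2% at day 0 (20.6 to 45.6, 59 cells) and 55.4% at days 9 and 11 (44.1 to 66.3, 83 cells) in the first batch. In the second it was 44.2% at day 0 (30.5 to 58.7, 52 cells), 48.5% at day 6 (38.4 to 58.7, 101 cells) and 87.2% at days 9 and 11 (77.7 to 93.7, 78 cells). The median count of members in those 78 cells was 16.5, against 4 at days 0 and 6, and 46.2% of them held 20 or more. The median number of detected genes rose alongside, from 1820 to 2979 in the first batch and from 2132.5 (1920 at day 6) to 3612.5 in the second. By set, the IFE-B share of lin+ cells was 30.4, 69.0 and 38.9% at days 0, 9 and 11 of the first batch and 61.9, 47.7, 88.2 and 91.7% at days 0, 6, 9 and 11 of the second. For lin- cells it was 33.3, 76.2 and 20.0%, and 32.3, 49.1, 82.4 and 85.0%. OB cells held 5 or more members in 30.0 and 42.9% at day 0 and days 9 and 11 of the first batch, and in 25.0, 24.3 and 40.9% at day 0, day 6 and days 9 and 11 of the second.

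**Figure D3:**
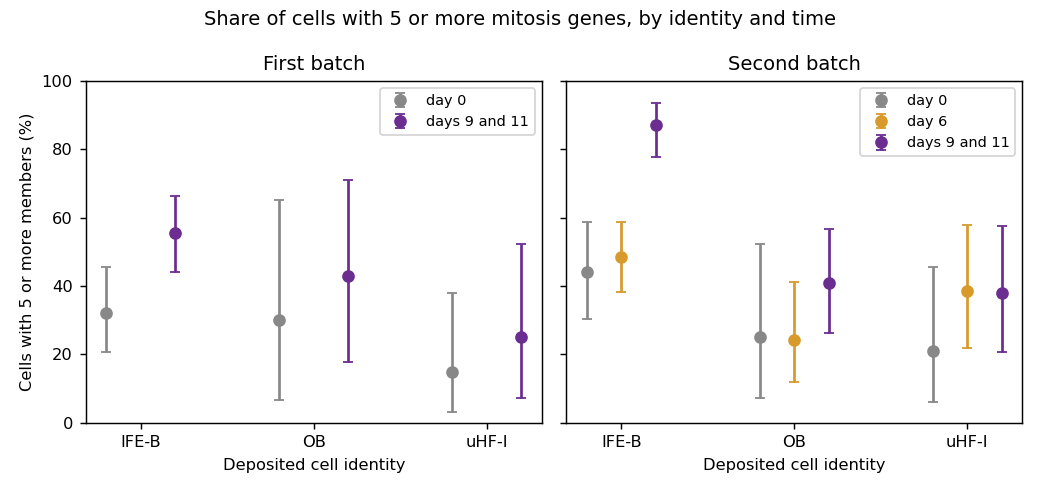
Share of cells with 5 or more mitosis genes (y axis, %, with exact 95% binomial intervals) in the 3 most frequent identities (x axis) by time and batch. IFE-B cells of days 9 and 11 in the second batch stand highest, at 87.2%.

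The level of each member was then taken as CPM, its share of a cell's total with every cell scaled to the same total. It was averaged over all cells of the set, and sets were scaled within each batch. First-batch totals are read counts and second-batch totals are sums of RPKM, so levels are compared only within a batch. Ranges given over all sets join both scales and are descriptions only. A set's mean depends on how many cells hold a gene and on how much each holds. It often rested on few cells: where at least 3 cells of a set held a member, the highest cell gave a median of 33.4% of the mean. Set values below are given in the order of days 0, 9 and 11 for the first batch and 0, 6, 9 and 11 for the second.

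Among the cyclins, Cdk1 and its partners, *Ccnb2*, cyclin B2, and *Cks2*, a small protein that binds Cdk1, had the highest mean CPM, the measure by which 2 members of each role are given in full. That mean is over the 14 sets of both batches and serves only to choose them. *Ccnb2* stood at 11.5, 100 and 49.5 CPM in lin+ cells and 83.7, 163 and 35.4 CPM in lin- cells of the first batch. Second-batch levels of *Ccnb2* were 108, 58, 140 and 178 CPM in lin+ and 63, 83.8, 125 and 169 CPM in lin- cells. In all but first-batch lin- cells, both late sets lay above day 0. For *Cks2* the first batch gave 8.88, 103 and 12.8 CPM in lin+ cells and 31.6, 58.2 and 4.94 CPM in lin- cells. *Cks2* in the second batch was measured at 107, 74.6, 132 and 114 CPM in lin+ cells and 96.4, 117, 65.3 and 108 CPM in lin- cells. In second-batch lin- cells day 0 lay between the late sets for this gene, and the first-batch day 11 sets lay near or below day 0. *Cdk1*, *Ccna2* and *Ccnb1* ranged from 0 to 93.8 CPM over the sets of both batches, with the first-batch maximum for *Cdk1* in lin- cells of day 9.

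Of the genes that control protein destruction, *Ube2c* codes for the ubiquitin-conjugating enzyme of the anaphase-promoting complex and *Cdc20* for the activator of that complex. *Ube2c* stood at 21, 151 and 22.5 CPM in lin+ cells and 113, 199 and 0 CPM in lin- cells of the first batch. Second-batch levels of *Ube2c* were 34.8, 33.2, 154 and 154 CPM in lin+ and 60, 93.9, 134 and 133 CPM in lin- cells. Day 9 was the highest or joint highest set in each lineage and batch. For *Cdc20* the first batch gave 20.6, 311 and 76.8 CPM in lin+ cells and 141, 249 and 77.6 CPM in lin- cells. *Cdc20* in the second batch was measured at 17.1, 40.9, 90.4 and 96.6 CPM in lin+ cells and 27.4, 14.7, 47.6 and 74.2 CPM in lin- cells. Both late sets of lin+ cells lay above day 0 in each batch. In lin+ cells of day 0, replicate 1, 1 of 47 cells gave 99.9% of the *Cdc20* mean and 99.8% of the *Ube2c* mean. *Cdca3*, linked to the breakdown of the Cdk1 inhibitor Wee1, ranged from 0.0142 to 167 CPM.

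In the group of mitotic kinases and spindle checkpoint, *Bub3* codes for a checkpoint protein that is present through the cell cycle, and *Bub1* for a kinase at the kinetochore. *Bub3* stood at 181, 282 and 250 CPM in lin+ cells and 144, 170 and 53 CPM in lin- cells of the first batch. Second-batch levels of *Bub3* were 80.5, 161, 156 and 128 CPM in lin+ and 89.7, 243, 190 and 172 CPM in lin- cells. Every set had *Bub3*, and in lin+ cells day 0 was the lowest set of each batch. For *Bub1* the first batch gave 0.011, 1.17 and 0.0849 CPM in lin+ cells and 3.2, 2.18 and 0 CPM in lin- cells. *Bub1* in the second batch was measured at 2.14, 0.787, 7.03 and 4.67 CPM in lin+ cells and 0, 679, 15.6 and 11.1 CPM in lin- cells. The value of 679 CPM came almost wholly from 1 cell, which gave 99.7% of it. That cell held 10139 reads in all, 859 of them of *Bub1*, with 392 detected genes and 2 members, so the high mean came from a shallow library. The place of *Bub1* among the 2 members given in full for this role rests on that set. *Plk1*, *Aurka*, *Bub1b* and *Mad2l1* ranged from 0 to 174 CPM. The highest first-batch value, of *Mad2l1* in lin+ cells of day 0, came to 99.9% from 1 cell.

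The chromosomal passenger complex joins Aurora B to the centromere, through borealin (*Cdca8*) and survivin (*Birc5*). *Cdca8* stood at 45.4, 230 and 37 CPM in lin+ cells and 159, 143 and 48.4 CPM in lin- cells of the first batch. Second-batch levels of *Cdca8* were 74.9, 62.4, 137 and 193 CPM in lin+ and 123, 62, 156 and 208 CPM in lin- cells. In the second batch the late sets of both lineages were above days 0 and 6, and in the first lin- cells of day 0 were the highest of their lineage. For *Birc5* the first batch gave 27.3, 73.5 and 31.9 CPM in lin+ cells and 61.3, 118 and 14.7 CPM in lin- cells. *Birc5* in the second batch was measured at 33, 9.23, 51.9 and 31.7 CPM in lin+ cells and 24, 20.4, 36.5 and 46.3 CPM in lin- cells. *Birc5* was highest at day 9 in the first batch in both lineages. *Aurkb*, which codes for Aurora B, ranged from 0 to 75.9 CPM.

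For the centromere and kinetochore, *Cenpa* codes for the histone that marks centromeres and *Spc24* for a subunit of the Ndc80 complex, which binds microtubules. *Cenpa* stood at 17, 196 and 63.6 CPM in lin+ cells and 58.2, 147 and 57 CPM in lin- cells of the first batch. Second-batch levels of *Cenpa* were 72.9, 13.6, 161 and 277 CPM in lin+ and 58.7, 64.8, 102 and 245 CPM in lin- cells. Both late sets of lin+ cells were above day 0 in each batch, and day 6 was the lowest second-batch set of lin+ cells. For *Spc24* the first batch gave 10.9, 197 and 39.3 CPM in lin+ cells and 43.6, 237 and 6.7 CPM in lin- cells. *Spc24* in the second batch was measured at 47.7, 33.4, 123 and 87.7 CPM in lin+ cells and 44.3, 102, 120 and 163 CPM in lin- cells. Day 9 was above day 0 in all 4 pairs. *Cenpe*, *Cenpf*, *Ndc80*, *Nuf2* and *Spc25* ranged from 0 to 140 CPM over both batches, with the second-batch maximum for *Spc25* in lin- cells of day 11.

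Among spindle motors and microtubule-binding proteins, *Ckap2* and *Nusap1* code for proteins that stabilise spindle microtubules. *Ckap2* stood at 0.00922, 38.7 and 8.25 CPM in lin+ cells and 48.6, 36.9 and 15.1 CPM in lin- cells of the first batch. Second-batch levels of *Ckap2* were 8.04, 14, 14.9 and 45.6 CPM in lin+ and 15, 21.3, 34.7 and 54.7 CPM in lin- cells. In lin+ cells of the second batch *Ckap2* stood at its lowest at day 0 and its highest at day 11. For *Nusap1* the first batch gave 2.35, 13 and 4.28 CPM in lin+ cells and 16.1, 12.2 and 0 CPM in lin- cells. *Nusap1* in the second batch was measured at 24.4, 7.56, 52.2 and 37.6 CPM in lin+ cells and 0, 27.8, 31.1 and 50.7 CPM in lin- cells. The late second-batch sets lay above days 0 and 6 in both lineages. *Kif11*, *Kif2c*, *Tpx2* and *Hmmr* ranged from 0 to 138 CPM.

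Of the genes of the central spindle, *Prc1* codes for a protein that bundles its microtubules and *Racgap1* for a subunit of centralspindlin. *Prc1* stood at 3.29, 45.3 and 0.897 CPM in lin+ cells and 48.5, 46.1 and 6.72 CPM in lin- cells of the first batch. Second-batch levels of *Prc1* were 43.4, 9.66, 74.9 and 49.4 CPM in lin+ and 32, 29.9, 66.7 and 67.4 CPM in lin- cells. Day 6 was the lowest second-batch set in both lineages. For *Racgap1* the first batch gave 0.117, 26.6 and 13.9 CPM in lin+ cells and 54.1, 30.2 and 8.67 CPM in lin- cells. *Racgap1* in the second batch was measured at 16, 3.51, 63.5 and 27.2 CPM in lin+ cells and 9.5, 18.5, 52.2 and 48.4 CPM in lin- cells. In lin+ cells both late sets were above day 0 in each batch, whereas first-batch lin- cells were highest at day 0. *Kif20a* and *Kif23* ranged from 0 to 53.0 CPM.

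For chromosome structure, *Top2a* codes for the topoisomerase that untangles sister chromatids and *Hmgb2* for a chromatin protein. *Top2a* stood at 14.2, 62.4 and 7.85 CPM in lin+ cells and 87, 92.2 and 5.77 CPM in lin- cells of the first batch. Second-batch levels of *Top2a* were 62, 21, 89.2 and 52 CPM in lin+ and 27.3, 68.2, 84.5 and 87 CPM in lin- cells. Lin+ cells were highest at day 9 in both batches. For *Hmgb2* the first batch gave 48.4, 92.6 and 43.3 CPM in lin+ cells and 48.9, 125 and 33.1 CPM in lin- cells. *Hmgb2* in the second batch was measured at 38.1, 35.4, 46.5 and 42.6 CPM in lin+ cells and 39.6, 44.9, 37.4 and 59.3 CPM in lin- cells. Over the whole second batch *Hmgb2* stayed between 35.4 and 59.3 CPM. *Mki67* ranged from 7.01 to 130 CPM in the first batch, highest in lin- cells of day 0, and from 5.61 to 29.0 CPM in the second.

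The last role holds *Tubb5*, a beta-tubulin, and *Stmn1*, which codes for stathmin, a protein that destabilises microtubules. *Tubb5* stood at 158, 147 and 70.3 CPM in lin+ cells and 182, 206 and 60.9 CPM in lin- cells of the first batch. Second-batch levels of *Tubb5* were 575, 254, 626 and 478 CPM in lin+ and 257, 262, 725 and 878 CPM in lin- cells. In the second batch day 6 was the lowest set of lin+ cells, and both late sets of lin- cells lay above days 0 and 6. For *Stmn1* the first batch gave 108, 106 and 79.4 CPM in lin+ cells and 154, 146 and 94.9 CPM in lin- cells. *Stmn1* in the second batch was measured at 250, 202, 347 and 408 CPM in lin+ cells and 206, 270, 424 and 462 CPM in lin- cells. In the second batch both late sets were above days 0 and 6 in each lineage for *Stmn1*, and in the first batch day 11 was the lowest. *Kpna2*, an importin of nuclear proteins, ranged from 3.94 to 49.3 CPM.

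Per set, the median over the 40 members in lin+ cells was 8.68, 45.2 and 7.75 CPM in the first batch and 16.8, 10.1, 42.2 and 40.5 CPM in the second. In lin- cells it was 48.8, 52.2 and 5.36 CPM and 13.6, 22.0, 45.8 and 49.5 CPM. In the first batch the lowest median belonged to lin- cells of day 11, in which 13 of 40 members had no read. Adjusted for length, which allows genes to be compared, *Tubb5* (mean over the sets of 362 TPM, a length-scaled share), *Stmn1* (277) and *Bub3* (154) had the highest levels, and *Cenpf*, with 9.00 TPM, the lowest.

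**Figure D4:**
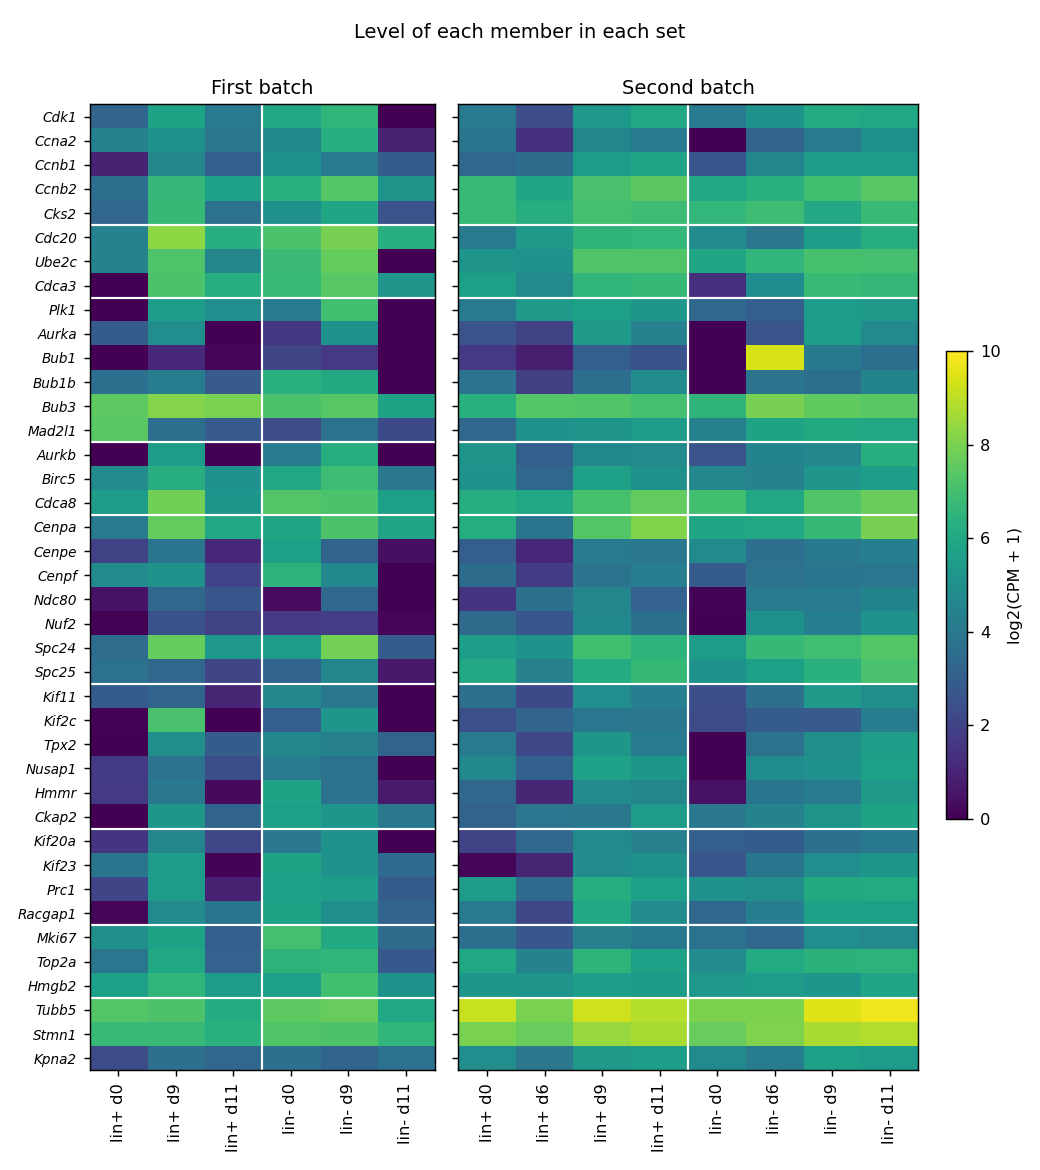
Level of each of the 40 members (rows, grouped by role) in each set (columns), as log2(CPM + 1) on the colour scale, for both batches. The columns of lin+ day 0 and of both day 11 sets in the first batch and of day 6 lin+ cells in the second are darkest, and the bright field of *Bub1* at day 6 is the set whose mean came to 99.7% from 1 cell.

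To ask whether wound cells differed from unwounded ones beyond the spread between sets, genes that reached 10 CPM in 2 or more sets were fitted with limma on log2(CPM + 1), with batch as covariate and p adjusted by the Benjamini-Hochberg method over 10644 genes. All 40 members entered the test. In lin+ cells at days 9 and 11 against day 0, 0 of 40 members passed an adjusted p of 0.05, with 0.0939% of all genes called. At an unadjusted p under 0.05 stood 7 of 40 members, all higher, and 10.1% of all genes. They were *Cdc20*, *Cenpa*, *Ckap2*, *Cdca3*, *Plk1*, *Racgap1* and *Ccnb1*, at log2 fold changes of 2.09 to 3.82. In lin+ cells of day 0, replicate 1, *Cdca3*, *Plk1*, *Ckap2* and *Racgap1* stood at 0.0142, 0.0103, 0.00922 and 0.117 CPM. Their fold changes thus rest partly on values near 0. *Ccnb1*, *Cenpa* and *Cdc20* stood at 1.02, 17 and 20.6 CPM there. In the second batch *Cdca3* stood at 50 CPM at day 0 and at 93.6 and 102 CPM at days 9 and 11. The smallest p belonged to *Cdc20*, with a log2 fold change of 2.62 ± 0.69 (SE; limma adjusted p = 0.24). By edgeR on summed reads, 0 members passed, with 0.0% of all genes called, and 2 had an unadjusted p under 0.05, as did 7.11% of all genes. The fold changes of 35 of 40 members were positive, with a median of 1.07, and those of 55.7% of all genes were, with a median of 0.15.

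In lin- cells at days 9 and 11 against day 0, limma again called 0 of 40 members, with 0.188% of all genes called. At an unadjusted p under 0.05, *Ndc80* (2.81 ± 1.18) and *Aurka* (3.05 ± 1.39) were higher, and 12.8% of all genes passed that rule. Both rest partly on values near 0, since day 0 of the first and second batch gave 0.212 and 0.0713 CPM for *Ndc80*. For *Aurka* it gave 2.1 and 0 CPM. With edgeR 0 members passed either rule, against 0.0283% of all genes adjusted and 8.87% unadjusted. The fold changes of 30 of 40 were positive, with a median of 0.42, and those of 53.6% of all genes were, with a median of 0.12. The difference between the lineages in this wound effect was fitted as an interaction. It had 0 of 40 members below an adjusted p of 0.05 by limma, with 0.0188% of all genes called, and 0 at an unadjusted p under 0.05, where 7.22% of genes stood. With edgeR the counts were 0 and 1, against 0.0283 and 5.79% of genes. Its median over the members was 0.57, against 0.05 over all genes.

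By role, the median log2 fold change in lin+ cells was 1.53 for the cyclins, Cdk1 and its partners, 2.62 for the control of protein destruction, 0.77 for kinases and checkpoint, 1.06 for the passenger complex and 1.46 for centromere and kinetochore. It was 1.67 for spindle motors and microtubule-binding proteins, 2.03 for the central spindle, 0.30 for chromosome structure and 0.18 for the tubulin group. In lin- cells the same medians were 0.53, 0.53, 0.94, 0.11, 0.79, 0.42, 0.07, -0.10 and 0.36. The tubulin group and chromosome structure, which holds *Mki67*, were thus the roles with the lowest medians in lin+ cells. Singly, *Ccnb2* changed by 1.53 ± 0.73 in lin+ and 0.53 ± 0.73 in lin- cells, *Cenpa* by 2.09 ± 0.68 and 1.03 ± 0.68, and *Top2a* by 0.39 ± 0.95 and -0.10 ± 0.95. None of these passed the limma test (adjusted p of 0.342 to 0.972).

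**Figure D5:**
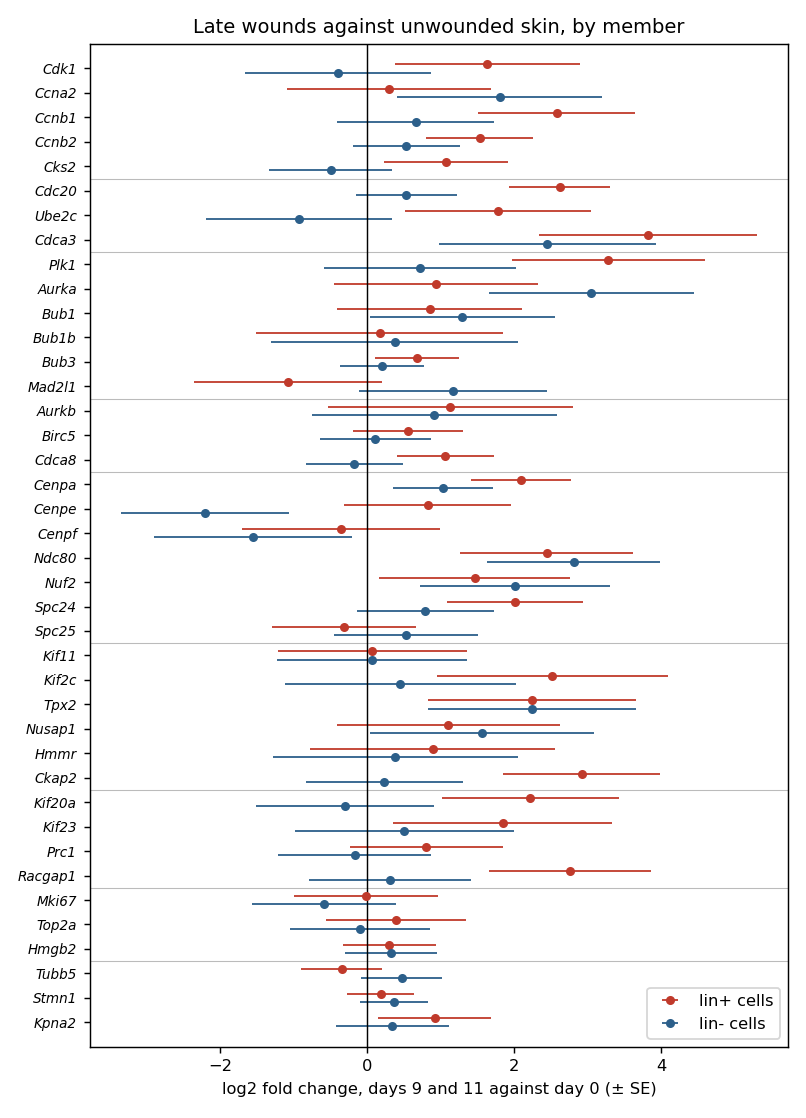
log2 fold change (x axis) of each member (y axis, grouped by role) between days 9 and 11 and day 0, with its SE, for lin+ and lin- cells. Most points of lin+ cells lie to the right of 0, with *Cdca3* the farthest at 3.82, and *Cenpe* of lin- cells lies farthest to the left. The *Cdca3* value rests partly on a level of 0.0142 CPM in lin+ cells of day 0, replicate 1.

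The order of the sets, which needs no model, differed between batches. In lin+ cells, 21 of 40 members had both late sets above day 0 in the first batch, where 38.6% of all genes had, and 34 of 40 in the second, where 41.6% had. Both batches showed this order for 19 members, and for 17.7% of genes. In lin- cells it held for 0 of 40 members in the first batch, with 30.5% of genes, for 37 in the second, with 46.4%, and for 0 in both, with 15.8%. Day 9 alone was above day 0 for 36 (53.2% of all genes) and 38 members (52.4%) in lin+ cells and for 23 (48.7%) and 37 (55.0%) in lin- cells, first batch before second. It was so in both batches for 34 members in lin+ (29.9% of genes) and 21 in lin- cells (29.3%). Day 11 of the first batch was above day 0 for 21 members (49.7% of genes) in lin+ cells and 1 member (43.7%) in lin- cells. The second batch thus had nearly the whole list higher in both late sets of both lineages, and in the first batch most of the list was higher at day 9 of lin+ cells. Members appear together in the same cells, so they are not separate observations. In lin+ cells of replicate 1, 1 cell with 33 members gave 100% of the *Ccnb2* mean and 99.9% of the *Ube2c* mean at day 11. At day 0 of that replicate, 1 cell with 31 members gave 96.3 and 99.8% of them. The share over all genes makes no allowance for this. Counts of members by order or sign are thus descriptions only, here and in other comparisons.

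Day 6 was in the second batch alone, with 1 set per lineage, so the spread in its tests comes from the other groups. Against day 0, limma called 0 of 40 members in lin+ cells, with 0.0% of all genes called, and 0 were past an unadjusted p of 0.05 (4.31% of genes). With edgeR 0 were past either rule (0.0 and 3.51% of genes). The median was -0.58 with 12 of 40 positive, against 0.11 with 53.3% positive over all genes. In lin- cells limma called 0 of 40, with 0.0376% of genes called. *Bub1* alone had an unadjusted p under 0.05, through the single cell described, and 5.99% of all genes had. With edgeR 0 members passed either rule (0.0189 and 4.29% of genes). The median was -0.16 with 16 of 40 positive, against 0.12 with 53.4% positive over all genes. By order, 10 of 40 members were above day 0 at day 6 in lin+ cells, where 51.6% of all genes were, and 31 of 40 in lin- cells, where 54.5% were. These counts within the second batch and the fitted medians, which also draw on the first batch for day 0, had opposite sides for lin- cells.

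Days 9 and 11 against day 6 gave 0 of 40 members past the adjusted threshold in both lineages by limma, with 0.00939% of all genes called in lin+ and 0.0376% in lin- cells. In lin+ cells *Cenpa* (3.86 ± 0.91, limma adjusted p = 0.812) and *Racgap1* (3.27) had an unadjusted p under 0.05, as had 2.30% of all genes, and 39 of 40 fold changes were positive, with a median of 1.73 against 0.06 over all genes. In lin- cells *Bub1* was lower and *Cdc20* higher (2.01) by the unadjusted rule, which 3.99% of genes passed, and 30 of 40 were positive, with a median of 0.64. With edgeR 0 members passed the adjusted threshold in either lineage (0.0189 and 0.0% of genes in lin+ and lin- cells), with 1 and 0 at an unadjusted p under 0.05 (1.91 and 2.63% of genes). Over all genes, 52.7% of these fold changes were positive in lin+ cells and 50.0% in lin- cells, the latter with a median of -0.0. In the second batch itself, both late sets were above day 6 for 37 members in lin+ cells, where 37.9% of all genes were, and for 33 in lin- cells, where 40.0% were.

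To compare lineages, lin+ and lin- cells of the same mouse set were fitted with the mouse set as block. In unwounded skin 0 of 40 members passed with limma, with 0.432% of all genes called. At an unadjusted p under 0.05, which 15.2% of all genes reached, 4 of 40 were lower in lin+ cells and 0 higher. They were *Ckap2* (-3.22), *Cdc20* (-1.68), *Cdca8* (-1.24) and *Cenpe* (-2.74), and that of *Ckap2* rests partly on 0.00922 CPM in lin+ cells of replicate 1. The median was -0.70, with 10 of 40 positive, against -0.03 with 48.4% positive over all genes. With edgeR 0 passed and 3 had an unadjusted p under 0.05, against 0.151 and 10.4% of genes. The batches differed here: lin+ cells were above lin- cells for 5 members in the first batch, where 44.8% of genes were, and for 28 in the second, where 49.4% were. In wounds limma called 0 of 40 members, with 0.263% of all genes called, and 0 by the unadjusted rule, which 7.13% passed. EdgeR gave 0 by both, against 0.0189 and 4.03% of genes. The median was -0.14 against -0.01 over all genes.

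Other genes of the cell cycle were taken from lists of 67 further mitosis genes, 30 S-phase genes, 5 G1 genes and 10 inhibitor genes. The G1 genes were the cyclin genes *Ccnd1*, *Ccnd2* and *Ccnd3* with the kinase genes *Cdk4* and *Cdk6*. The inhibitor genes were Cdk inhibitors together with *Rb1*, *Rbl1* and *Rbl2* of the retinoblastoma family. In the order of the lists, 56, 29, 5 and 9 genes could be tested. With limma and with edgeR, 0 of them passed an adjusted p of 0.05 in any of the 9 comparisons, and 45 and 35 of the 891 tests gave an unadjusted p under 0.05. In lin+ cells at days 9 and 11 against day 0, 10.1% of all genes stood at an unadjusted p under 0.05. Of the further mitosis genes 2 were higher and 1 lower by this rule, 2 S-phase genes were higher, and of the inhibitor genes 1 was higher and 1 lower. The medians were 0.52 for the further mitosis genes, 0.34 for S phase, 0.50 for the G1 genes and 0.27 for the inhibitor genes. In lin- cells they were 0.19, 0.70, 0.20 and 0.07. There 12.8% of all genes passed the unadjusted rule. By it, 4 S-phase genes, 2 inhibitor genes and 2 further mitosis genes were higher and 1 further mitosis gene was lower. S phase was thus the list with the highest median in lin- cells, and the 40 members had the highest in lin+ cells. At day 6 against day 0 the further mitosis genes had medians of -0.56 in lin+ and -0.22 in lin- cells, and the S-phase genes 0.29 and 0.36.

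Of 9073 other genes compared across cells, the 10 whose levels followed the module score most closely in both batches were *Gm8203*, *Gm13167*, *Pclaf*, *Gm13160*, *Gm13232*, *Gm20875*, *Gm13237*, *Gm7931*, *Gm6750* and *Cks1b*. Their Spearman's rho, the lower of the batches over 222 and 462 cells, was 0.594 to 0.548. Cells share library and depth in both measures. *Pclaf* codes for a protein that binds the replication clamp PCNA, and *Cks1b* for a Cdk-binding protein related to *Cks2*. *Pclaf* averaged 349 TPM in cells with 20 or more members and 0.364 TPM in those with 0 to 4, and *Cks1b* 825 and 109 TPM. The 8 genes with Gm symbols are predicted loci, and reads from near-identical copies elsewhere in the genome could count toward them, so their values are uncertain.

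The cells, taken by the study's sorting scheme from those negative for the leukocyte protein CD45, had the markers of keratinocytes, with 12 of 12 genes detected and a summed level of 22500 to 43200 CPM at day 0, 23800 to 25800 at day 6 and 16400 to 61000 at days 9 and 11, whereas *Krt1* was at 0 in some sets. Melanocyte markers, 4 of 5 with values in both batches, summed to 0.294 to 9.41 CPM at day 0, 8.34 to 567 at day 6 and 0 to 3330 at days 9 and 11. Immune markers, 7 of 9 with values in both batches, summed to 0 to 1.1 CPM at day 0, 15.9 to 47.6 at day 6 and 0 to 241 at days 9 and 11. Fibroblast markers summed to 0.00643 to 22.0, 0.00846 to 4.83 and 0.766 to 22.9 CPM at the same times, and endothelial markers to 0.00447 to 7.76, 0.00292 to 0.602 and 0 to 87.3 CPM. The sums hold only markers with values in both batches, and their ranges join the CPM scales of both. Every such marker of the immune, fibroblast, endothelial and melanocyte lists was at 0 in at least 1 set. The part of these cells in the members' levels was not tested.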

How the data were processed

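Single keratinocytes were sequenced with Smart-seq2, which has no molecular identifiers. The authors trimmed reads with Trimmomatic (0.27), aligned them with STAR (2.2) to GRCm38, counted them per RefSeq gene with featureCounts and used Seurat, by the submitters' processing notes and the methods (3.2.2 by the notes, another version by the methods). In the deposited combined table the first-batch values are read counts, equal to those of a separate deposited table of raw counts, and those of the second batch are RPKM, as their values show. Second-batch reads were recovered from the steps between RPKM values, and 99.99% of values below 200 reads were whole to within 0.02 (mean over cells, 99.7% at the lowest). Of 25001 genes, 344 under different symbols were merged, which left 19639 with values in both batches. A minimum of 200 genes per cell was stated, yet 4 cells had fewer and were kept. No doublet caller was run. Other samples were not used. Median reads per cell ranged from 1810000 to 5970000 over sets, which leaves low members undetected in single cells.

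A member counted as detected with at least 1 read. Intervals are exact (Clopper-Pearson, 95%). For levels, each cell's values were scaled to CPM, averaged per set and put on a common scale in each batch by median ratios of genes above 5 CPM. In the second batch such a CPM is a share of summed RPKM. Means were tested as log2(CPM + 1) with limma (3.58.1, R 4.3.3) with trend, in 9 comparisons with a threshold of 0.05 after Benjamini-Hochberg adjustment. A fold change on this scale understates that of low genes. Comparisons of days had batch as covariate and day 6 was coded as second batch, and comparisons of lineages had the mouse set as block, because both lineages of a set came from the same skin. Deviations of paired sets from their group correlated at -0.215 to -0.00904. With 2 sets per group and a batch term, the fit itself pushes such correlations below 0. They therefore cannot show whether the pairing mattered. Each set counted as 1 replicate, so p-values measure the spread between sets. They treat day 0 and the late sets as independent, although these share mice. The design had foreseen summed counts only as an alternative, which was run with edgeR (4.0.16) on recovered reads for 10584 genes. Scripts were tested on simulated data. Values in every set are given for members that pass 0.05 and for the 2 members of each role with the highest mean CPM. Other alternatives were the pseudocount, the filter, the mean of logs over cells, leaving out each mouse set, thinning to 500000 reads and other limits for members per cell. Members, lists and rules were chosen with earlier results of these data known. How reads shared by near-identical copies were counted is not given in the sources used here, and *Tubb5* shares stretches with other beta-tubulin genes.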

Additional observations from a re-analysis of the deposited data

Results flagged for a closer look

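The share of lin- cells with 5 or more members was 19.2% at day 11, replicate 1, far below the nearest of the other 3 late sets of lin- cells at 59.6%, and the gap was 0.896 of the whole range of the 4 sets, above Dixon's 95% limit for a sample that stands apart. The set holds 26 cells, with a median of 1943.5 detected genes against 3095 to 3228 in the other late lin- sets, and 13 of the 40 members had no read in it. Chance flags about 1 in 20 such groups, and 6 groups were checked.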

How the results depend on the processing

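Of 122 recomputed counts of members called, 113 stayed at 0. With the mean of logs over cells in place of the log of the mean, 1 member passed in lin+ and 7 in lin- cells at days 9 and 11 against day 0, where 14.9 and 18.7% of all genes passed. With 10 added before the log, the count also moved from 0 in lin- cells at day 6 against day 0 and at days 9 and 11 against day 6. Both comparisons rest on 1 day 6 set of lin- cells, in which the *Bub1* mean came almost wholly from 1 shallow cell. Which member passed there is not given here. Leaving out 1 mouse set gave 0 to 2 members in lin+ and 0 to 1 in lin- cells at days 9 and 11 against day 0, 0 to 1 in the difference between the lineages and 0 to 7 between lineages of unwounded skin, and 0 in the other comparisons. The highest of these, 2, 1 and 7, came without day 0 replicate 2, where 3.13, 0.659 and 4.73% of all genes passed, and the 1 of lin- cells without day 0 replicate 1, where 0.617% did. Without the replicate block, which is batch in comparisons of days and the mouse set in those of lineages, the count of members called was 0 in every comparison, as with it, while the share of all genes called fell from 0.0939 to 0.0% in lin+ and from 0.188 to 0.0% in lin- cells at days 9 and 11 against day 0, from 0.432 to 0.0564% between lineages of unwounded skin and from 0.263 to 0.0376% between those of wounds. Comparisons with day 6 give no value without its set.

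Of 280 recomputed fold changes of 10 members at days 9 and 11 against day 0, 33 changed sign. Without 1 mouse set, in lin- cells, *Ccnb2* ranged from -0.19 to 1.25, *Ube2c* from -2.75 to 0.88, *Bub3* from -0.38 to 0.78, *Cdca8* from -0.85 to 0.48, *Ckap2* from -0.92 to 1.39, *Prc1* from -1.60 to 1.27, *Top2a* from -1.75 to 1.56, *Tubb5* from -0.59 to 1.53 and *Cdc20* from -0.14 to 1.21. In lin+ cells *Prc1* ranged from -0.13 to 1.73, *Top2a* from -0.21 to 0.98 and *Tubb5* from -0.73 to 0.03. The mean of logs reversed *Ube2c* to 0.82, *Cdca8* to 1.07, *Prc1* to 0.59 and *Top2a* to 0.98 in lin- cells and *Tubb5* to 1.09 in lin+ cells. IFE-B cells alone, an alternative chosen after seeing the data, reversed *Cdca8* to 0.09, *Prc1* to 0.25 and *Top2a* to 0.09 in lin- cells. A pseudocount of 10 moved *Top2a* to 0.04 and edgeR moved *Ckap2* to -0.59 there. The cause of these changes was not tested.

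The share of cells with 5 or more members at days 9 and 11 minus day 0 kept its sign in all alternatives by lineage but 1. With 3 members in place of 5 it was 33.5 points for lin+ cells of the first batch and 9.70 for lin- cells of the second. For lin+ cells of the second batch it was 25.0 after thinning, 28.1 among IFE-B cells and 21.0 with 10 or more reads per member. Without 1 set it ranged from 14.1 to 33.7 and from 8.8 to 18.1 in lin+ cells of the first and second batch, and from -10.6 to 34.5 and from 30.1 to 39.2 in lin- cells. For both lineages together it was 19.5 and 25.9 points in the first and second batch, but -0.3 and -3.7 among cells with 1500 to 2500 detected genes and -30.6 and -7.2 with 2500 to 3500, ranges chosen after seeing the data. On the log2(CPM + 1) scale the difference in module score was 0.816 and 0.775 in lin+ and 0.499 and 1.33 in lin- cells of the first and second batch, a scale with another offset. With single cells at 1810000 to 5970000 reads, a member absent from a cell may lie below the depth.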
